A study of Mus musculus with 54 samples.

Results

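Bst1, Cd38, Cd24a and Cd55 are 4 genes that encode surface antigens of B progenitors. Every accessible region, mark, factor peak and chromatin contact that the deposited mouse tables assign to them was followed. They were chosen by name, and a region counted as theirs where the deposited annotation named one of them as its nearest transcription start. The 4 genes, of 1787 in the accessibility table, held 15 of its 4829 distinct regions, with 9 at Cd38, 4 at Bst1 and 1 each at Cd24a and Cd55.

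Bst1 (BP-3, or CD157) and Cd38 are paralogous enzymes that consume NAD at the cell surface, Bst1 held by a lipid (GPI) anchor and Cd38 by a membrane-spanning helix. Cd24a encodes heat-stable antigen, a small GPI-anchored glycoprotein used together with BP-1 to order the stages of mouse B-cell development, and Cd55 encodes decay-accelerating factor, a GPI-anchored protein that takes apart complement convertases. E2A (the product of Tcf3) and Ebf1 are transcription factors that open and activate B-lineage genes in progenitors. H3K4me3 marks active starts, H3K4me2 and H3K27ac mark active starts and enhancers, and H3K27me3 is the mark of Polycomb repression.

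The study profiled chromatin of progenitors labelled ProB from fetal liver of C57BL6/J mice. All of these cells had been expanded on OP9 stroma, with interleukin-7 and the ligands of KIT and FLT3 as growth factors. ATAC-seq, which reads open chromatin, was labelled for 3 E2A-KO and 3 Wt samples. Marks and factors were labelled for Ebf1-KO and Wt cells, H3K27ac by CUT&RUN and the others by ChIP-seq. H3K4me3 and H3K27me3 were pools of 2 samples a genotype, and each other mark or factor was a single library a genotype. Ebf1-KO cells carrying a pMiG-Ebf1ER vector, which supplies an Ebf1 that 4OHT activates, were sampled by ATAC-seq at 0, 6, 24 and 72 h of 4OHT with 2 samples a time, and no sample was labelled for 4OHT without Ebf1ER. Contacts (H3K4me3 PLAC-seq) came from an Abelson-transformed progenitor B line called the Abelson line below.

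Each group of a deposited region table was 1 column, a pool or a single library, so no test across samples could be made and every difference below compares these libraries. Values are tags per 10000000 tags of a library. Control libraries (input or IgG) were labelled for ChIP-seq and CUT&RUN, but no control signal was subtracted here. The 95% intervals in parentheses are exact Poisson intervals, or exact conditional intervals for fold ratios, and cover counting error only, since reads without molecular identifiers are not independent molecules. Library totals lay between 24557525 and 196071042 tags. Fewer cells with an open or marked region cannot be told apart from less signal in each cell. The tables were restricted to regions near genes selected as higher in Wt, so a lower knockout signal at the members is not independent evidence about them. Of the 11 pro-B markers 10 had regions, at 18.1 to 97.4 tags in Wt, against 1 of 5 T-cell markers (Cd5), 1 of 4 natural killer markers (Klrb1c), 1 of 6 myeloid markers (Lyz2) and 0 of 4 erythroid and 0 of 4 stromal markers. The strongest region of Cd5 held 6.30 tags in E2A-KO and 10.9 in Wt, and that of Lyz2 5.13 in E2A-KO and 7.41 in Wt. That of Klrb1c held 35.7 in E2A-KO and 81.2 in Wt. This was inside the pro-B range in Wt and above the pro-B range in E2A-KO, 2.91 to 33.0 tags. The restriction to genes higher in Wt bears on which markers have regions, so these counts are a weak check of the cell type. Among the accessible regions of the Abelson line, 10 of 11 pro-B, 4 of 5 T-cell, 3 of 4 natural killer, 6 of 6 myeloid, 2 of 4 erythroid and 4 of 4 stromal markers had one. The knockouts were taken from the labels, since neither transcripts nor the deleted segments were analysed here. How reads that map to several places were counted is not given in the sources used here, which bears on Cd55 and its paralog Cd55b.

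The sequences before 2 of the starts are printed here because the largest differences in H3K4me3 and H3K27me3 among the members lay at the starts, and because H3K4me3 differed in opposite directions at these 2 starts. By symbol, 2 of the 4 members matched the RefSeq promoter table (build GRCm38.p6), Cd38 and Cd55. Each line gives the 250 bases before the start, 5′ to 3′ on the gene's strand, with matches to the Ebf1 motif CCCNNGGG and to the E-box CANNTG in capitals, sought on both strands. The Cd38 window is chr5:43868559-43868808 on the plus strand and the Cd55 window chr1:130462745-130462994 on the minus strand.
Cd38: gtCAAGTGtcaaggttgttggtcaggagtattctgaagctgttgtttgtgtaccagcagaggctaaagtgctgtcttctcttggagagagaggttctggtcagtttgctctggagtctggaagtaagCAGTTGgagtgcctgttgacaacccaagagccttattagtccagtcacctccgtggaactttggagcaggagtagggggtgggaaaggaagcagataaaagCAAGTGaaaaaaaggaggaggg
Cd55: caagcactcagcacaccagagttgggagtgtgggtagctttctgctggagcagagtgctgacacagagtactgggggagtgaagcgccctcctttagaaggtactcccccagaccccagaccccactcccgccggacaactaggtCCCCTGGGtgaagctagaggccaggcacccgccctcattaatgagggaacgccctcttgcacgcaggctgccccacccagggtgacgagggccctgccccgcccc

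The Cd55 window lay whole inside its accessible region and was 64.0% G or C, while 120 bases of the Cd38 window lay in its region and 48.8% were G or C, beside a median of 52.4% over 32536 promoter windows. Cd55 held 1 match to CCCNNGGG, at positions -105 to -98 with -1 as the last base before the start, and Cd38 held none. That motif was in 11.9% of all windows. Cd38 held 3 E-box matches, a motif in 66.2% of windows, 2 of the ETS core GGAAG (64.1%) and 1 of the Ikaros core TGGGAA (21.6%), none of which overlapped another, while Cd55 held none of these 3. A match is a description of letters and not a binding site.

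The first comparison set E2A-KO against Wt accessibility and asked where the regions of the 4 genes differed. Accessibility was lower in E2A-KO at intron 4 of Bst1, at 4 regions of Cd38 away from its start, and at the starts of Bst1, Cd24a and Cd55. It was close to equal at the Cd38 start. At least 2-fold lower were 8 of the 15 regions, against 37.6% of all 4829 regions, and none was at least 2-fold higher. The median of all regions was itself -0.76 on the log2 scale, so ratios relative to it are given too. The Wt column was a pool named for 6 libraries. Relative to that median 3 of the 15 were at least 2-fold lower (15.3% of all regions) and 1 at least 2-fold higher (6.65%), and with TMM scaling 3 were lower (14.8%).

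The largest signal was in Bst1. Its intron 4 region, 5.8 kb from the start (chr5:43824304-43825074), held 16.2 (13.6–19.1) tags in E2A-KO and 174 (168–181) in Wt, 10.8-fold lower (9.08–12.9). In Wt tags per kilobase of region it ranked 2 of 4829, and its log2 ratio of -3.35 ranked 68 from the lowest. Relative to the median of all regions the log2 ratio was -2.59. The region over the Bst1 start (chr5:43818730-43819486) held 8.51 (6.67–10.7) tags in E2A-KO and 23.9 (21.5–26.4) in Wt, 2.80-fold lower (2.18–3.66), or -0.63 relative to the median. Farther into the gene, the regions at 18.0 and 18.7 kb held 1.98 and 4.66 tags in E2A-KO, against 4.23 and 5.40 in Wt. The Bst1 regions thus differed among themselves, and the interval of the region at 18.7 kb included an equal signal (fold in E2A-KO over Wt 0.863, 0.577–1.27).

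At Cd38 a pair of neighbouring regions in the first intron carried the difference. The region at 16.2 kb (chr5:43884660-43885417) held 9.91 (7.92–12.3) tags in E2A-KO and 62.3 (58.4–66.4) in Wt, 6.29-fold lower (5.03–7.94). Its neighbour at 16.8 kb (chr5:43885446-43885689) held 1.05 (0.480–1.99) tags in E2A-KO and 15.6 (13.7–17.7) in Wt, 14.9-fold lower (7.70–32.9), from 9 tags in E2A-KO. This was the 1 member region that the authors' tables classed as open in Wt and not in Ebf1-KO. Relative to the median of all regions the pair stood at log2 ratios of -1.78 and -2.26. The region 3.2 kb into the gene (chr5:43871877-43872204) held 4.43 tags in E2A-KO and 15.2 in Wt, and the one 22.9 kb upstream (chr5:43845696-43846078) held 4.20 in E2A-KO and 14.96 in Wt. Both were more than 3-fold lower, at -0.82 and -0.86 relative to the median.

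The region over the Cd38 start (chr5:43868689-43869668) stood apart from these, with 10.5 (8.44–12.9) tags in E2A-KO and 12.7 (10.96–14.6) in Wt. Its fold of 0.827 in E2A-KO over Wt had an interval (0.637–1.07) that included 1, and the log2 ratio of -0.25 was 0.51 relative to the median and 0.58 with TMM. The other 4 Cd38 regions, at -1.3, -0.7, 1.2 and 29 kb, held 1.05 to 1.75 tags in E2A-KO and 0.980 to 1.76 in Wt, and each interval of the fold included 1. The region at 1.2 kb, with 15 tags in either library, was the 1 that passed 2-fold upward relative to the median. Of the 15 member regions 14 were lower in E2A-KO with library totals and 9 with TMM, where the Bst1 region at 18.7 kb and the Cd38 regions at -1.3, -0.7, 0.4 and 29 kb turned to slightly higher. Of all 4829 regions 87.3% were lower in E2A-KO with library totals and 48.8% with TMM.

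Cd24a and Cd55 each had 1 region, over the start. Cd24a (chr10:43578293-43580262, exon 1) held 55.0 (50.2–60.2) tags in E2A-KO and 122 (117–128) in Wt, 2.22-fold lower (2.01–2.46). Cd55 (chr1:130462005-130463088) held 18.4 (15.7–21.5) tags in E2A-KO and 53.9 (50.3–57.7) in Wt, 2.93-fold lower (2.47–3.49). Relative to the median of all regions these were -0.38 and -0.74, less than 2-fold. Per kilobase, Wt accessibility was highest at Bst1 intron 4 (226 tags per kb), followed by the Cd38 regions at 16.2 and 16.8 kb (82.2 and 64.0), Cd24a (62.1), Cd55 (49.7) and the Cd38 region at 3.2 kb (46.4). In that order the Cd38 region at 16.8 kb and Cd24a did not differ beyond their counting intervals, nor did Cd55 and the Cd38 region at 3.2 kb.

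**Figure D1:**
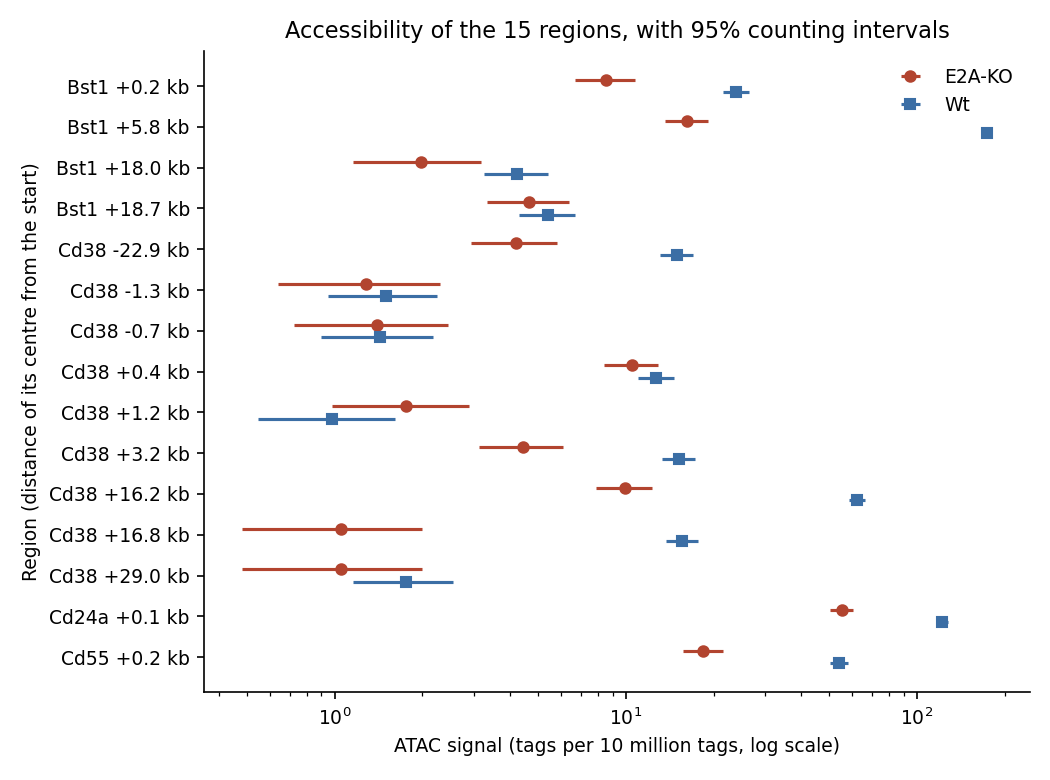
ATAC signal of the 15 member regions in E2A-KO (circles) and Wt (squares), in tags per 10000000 tags on a log axis, with 95% Poisson intervals as bars and regions named by the distance of their centre from the start. The symbols lie far apart at Bst1 5.8 kb and at Cd38 16.2 and 16.8 kb. Their intervals overlap at Bst1 18.7 kb, at the Cd38 start and at the 4 weak Cd38 regions.

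The second comparison set Ebf1-KO against Wt for 4 histone marks and RNA polymerase II (PolII) at 10 of the 15 regions, 9 open in both genotypes and 1 open in Wt only. The other 5 regions, with at most 4.23 tags in Wt ATAC, were in neither class. The 4 starts behaved in different ways. H3K4me3 was lower in Ebf1-KO than in Wt at Bst1, Cd55 and Cd24a, and higher at Cd38. Cd24a had more H3K4me2 in Ebf1-KO. Within Ebf1-KO the starts of Bst1, Cd55 and Cd38 held similar H3K4me3, 17.5, 18.0 and 17.4 tags per kb. These 3 starts differed in Wt, with 161, 145 and 2.66 tags per kb. H3K27me3 was higher in Ebf1-KO at the starts of Cd24a, Cd55 and Cd38, and near the detection limit in both genotypes at Bst1.

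For H3K4me3, 4 of the 10 regions were at least 2-fold lower in Ebf1-KO (25.2% of 3642 regions) and 1 at least 2-fold higher (15.4%). The Bst1 start held 13.3 (11.7–14.97) tags in Ebf1-KO and 122 (114–130) in Wt, 9.19-fold lower (8.00–10.6). The Cd55 start held 19.5 (17.6–21.6) tags in Ebf1-KO and 157 (148–166) in Wt, 8.04-fold lower (7.16–9.04). These log2 ratios, -3.11 and -2.94, ranked 135 and 168 from the lowest of 3642. Cd24a had the highest H3K4me3 of the members in both genotypes, with 195 (188–201) tags in Ebf1-KO and 410.0 (396–425) in Wt, 2.107-fold lower (2.01–2.21). The Cd38 start held 17.0 (15.3–19.0) tags in Ebf1-KO and 2.61 (1.59–4.03) in Wt, 6.52-fold higher (4.16–10.8), which ranked 62 from the highest. The other region counted as lower, Cd38 at 22.9 kb upstream, rested on 5 tags in Ebf1-KO and 15 in Wt.

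H3K27me3 was at least 2-fold higher in Ebf1-KO at 3 of the 10 regions (16.9% of 3642), and all 3 lay over starts. Cd24a held 31.25 (27.5–35.5) tags in Ebf1-KO and 1.36 (0.590–2.45) in Wt, 22.98-fold higher (12.6–53.8) and rank 21 from the highest. Cd55 held 23.2 (20.0–26.95) tags in Ebf1-KO and 1.43 (0.687–2.63) in Wt, 16.2-fold higher (8.64–34.5) and rank 46. The Cd38 start held 7.96 (6.15–10.3) tags in Ebf1-KO and 1.65 (0.888–3.00) in Wt, 4.82-fold higher (2.49–9.52). The Bst1 start had 0.780 (0.285–1.69) tags in Ebf1-KO and 0.570 (0.156–1.47) in Wt, so that no difference was detectable at this depth. The remaining 6 regions held at most 1.75 tags in Ebf1-KO and 1.29 in Wt.

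**Figure D2:**
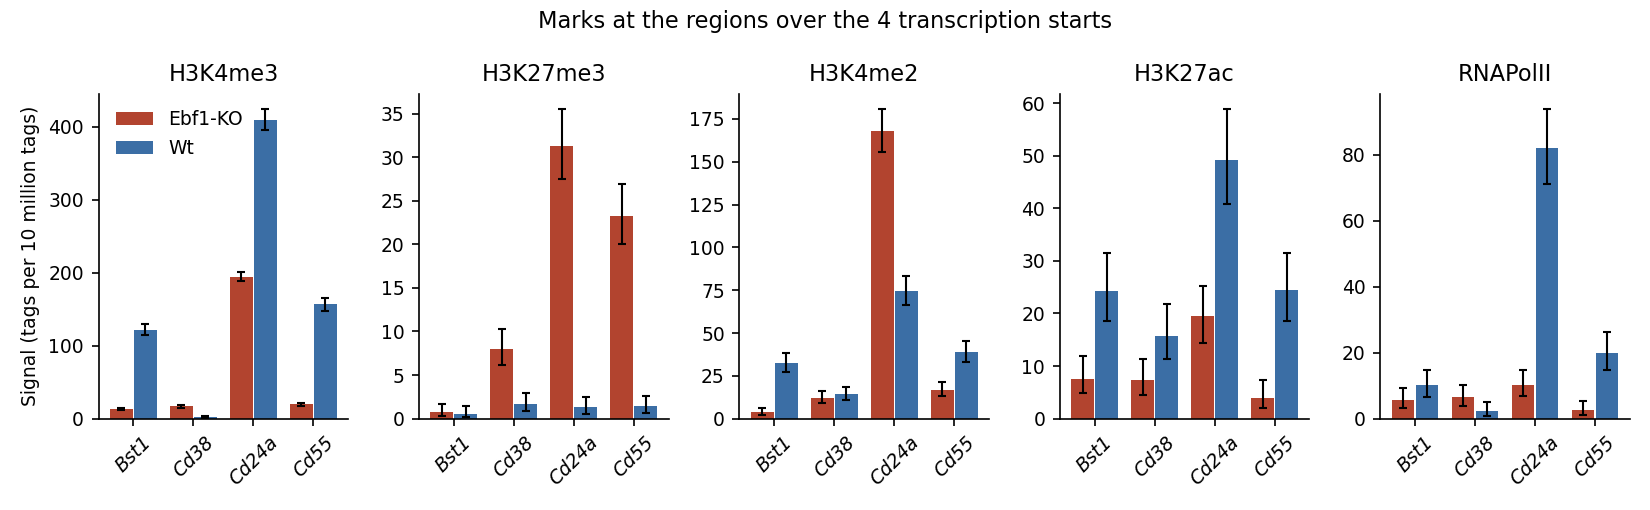
Signal of 5 marks at the regions over the 4 starts in Ebf1-KO (left bar of each pair) and Wt (right bar), in tags per 10000000 tags with 95% Poisson intervals, each panel with its own axis from 0. H3K4me3 is lower in Ebf1-KO at Bst1, Cd24a and Cd55 and higher at Cd38, and H3K27me3 is higher in Ebf1-KO at Cd38, Cd24a and Cd55.

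These marks combined differently at the 4 starts. Lower H3K4me3 together with higher H3K27me3, each by at least 2-fold, was found at Cd24a and Cd55 and at 8.35% of all 3642 regions. Both marks at least 2-fold higher in Ebf1-KO was the pattern of the Cd38 start, shared by 0.741% of all regions. Lower H3K4me3 with higher H3K4me2 was the pattern of Cd24a, shared by 0.329% of all regions, 12 in number. The 3 pairings were looked at after the values of the members were known.

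H3K4me2 was at least 2-fold lower in Ebf1-KO at 6 of the 10 regions (30.3% of 3642) and at least 2-fold higher at 2 (7.58%). The Bst1 start held 3.84 (2.19–6.23) tags in Ebf1-KO and 32.55 (27.3–38.6) in Wt, 8.48-fold lower (5.04–15.3). Cd24a held 168 (156–181) tags in Ebf1-KO and 74.3 (66.2–83.1) in Wt, 2.26-fold higher (1.97–2.59). The Cd55 start held 17.0 tags in Ebf1-KO and 38.9 in Wt, and the Cd38 start 12.2 in Ebf1-KO and 14.6 in Wt. The Cd38 regions at 16.2 and 16.8 kb had 12.0 and 5.28 tags in Ebf1-KO, against 43.2 and 19.2 in Wt, both 3.6-fold lower. The second region counted as higher, Bst1 at 18.7 kb, rested on 9 tags in Ebf1-KO and 2 in Wt, with an interval of the fold that included 1 (0.919–42.2).

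H3K27ac was lower in Ebf1-KO at all 10 regions with library totals, as at 82.0% of all 3642 regions. With TMM all 10 stayed lower, beside 50.9% of all regions, but some by little. The TMM log2 ratios were -0.10 at Cd38 3.2 kb, -0.16 at Cd38 16.2 kb and -0.30 at the Cd38 start. At Cd38 3.2 kb the interval of the fold included 1 with library totals (0.243–1.17). H3K27ac was at least 2-fold lower at 7 of the 10 (37.4% of 3642). The median of all regions was -0.70, and with TMM 2 of the 10 remained at least 2-fold lower (19.8%), the Cd38 region 22.9 kb upstream and the Cd55 start. Bst1 at 5.8 kb held 20.9 (15.7–26.9) tags in Ebf1-KO and 62.9 (53.2–73.4) in Wt, 3.01-fold lower (2.21–4.18). The Cd55 start held 3.89 (2.03–7.29) tags in Ebf1-KO and 24.4 (18.6–31.4) in Wt. The Cd38 start held 7.4 (4.52–11.4) tags in Ebf1-KO and 15.7 (11.3–21.7) in Wt, 2.12-fold lower (1.22–3.88). Its log2 ratio of value plus 1 was -0.99, just short of 2-fold. Among the 10 the Cd38 region at 16.2 kb had the most H3K27ac in both genotypes, 40.0 (32.8–48.3) tags in Ebf1-KO and 75.5 (65.2–87.4) in Wt, and its log2 ratio of -0.90 was -0.21 relative to the median.

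PolII was at least 2-fold lower in Ebf1-KO at 6 of the 10 regions (39.7% of 3642) and at least 2-fold higher at 1 (7.03%), against a median of -0.67 for all regions. Bst1 at 5.8 kb, within the transcribed gene, held 25.0 (19.6–31.4) tags in Ebf1-KO and 111 (98.3–124) in Wt, 4.44-fold lower (3.42–5.82). Cd24a held 10.3 (6.92–14.6) tags in Ebf1-KO and 81.9 (71.2–93.8) in Wt, 7.99-fold lower (5.43–12.1), beside an H3K4me3 signal that was 2.107-fold lower. The Cd55 start held 2.74 (1.18–5.39) tags in Ebf1-KO and 19.9 (14.8–26.2) in Wt, 7.26-fold lower (3.43–17.7). The Bst1 start held 5.81 (3.39–9.31) tags in Ebf1-KO and 10.2 (6.63–14.9) in Wt, with an interval of the fold that included 1.

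At Cd38 PolII was higher in Ebf1-KO at the start and lower at the regions at 16.2 and 16.8 kb and 22.9 kb upstream. At 3.2 kb the interval of the PolII fold included 1. H3K27ac did not share this contrast with library totals, since it was lower at the start too. Relative to the median of all regions the H3K27ac log2 ratio at the start was only -0.29, and -0.30 with TMM. PolII at the start was 6.50 (3.91–10.1) tags in Ebf1-KO and 2.34 (0.859–5.10) in Wt, 2.78-fold higher (1.07–8.49), from 19 and 6 tags. The regions at 16.2 and 16.8 kb held 12.3 and 3.08 tags in Ebf1-KO, against 46.4 and 22.6 in Wt. The region 22.9 kb upstream held 2.39 (0.963–4.93) tags in Ebf1-KO and 29.3 (23.02–36.7) in Wt, 12.2-fold lower (5.65–31.4). Of the 10 regions 9 were lower in Ebf1-KO with library totals and 7 with TMM, where Bst1 at 18.7 kb (0.30) and Cd38 at 3.2 kb (0.02) turned. Of all 3642 regions 71.7% were lower with library totals and 51.3% with TMM.

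**Figure D3:**
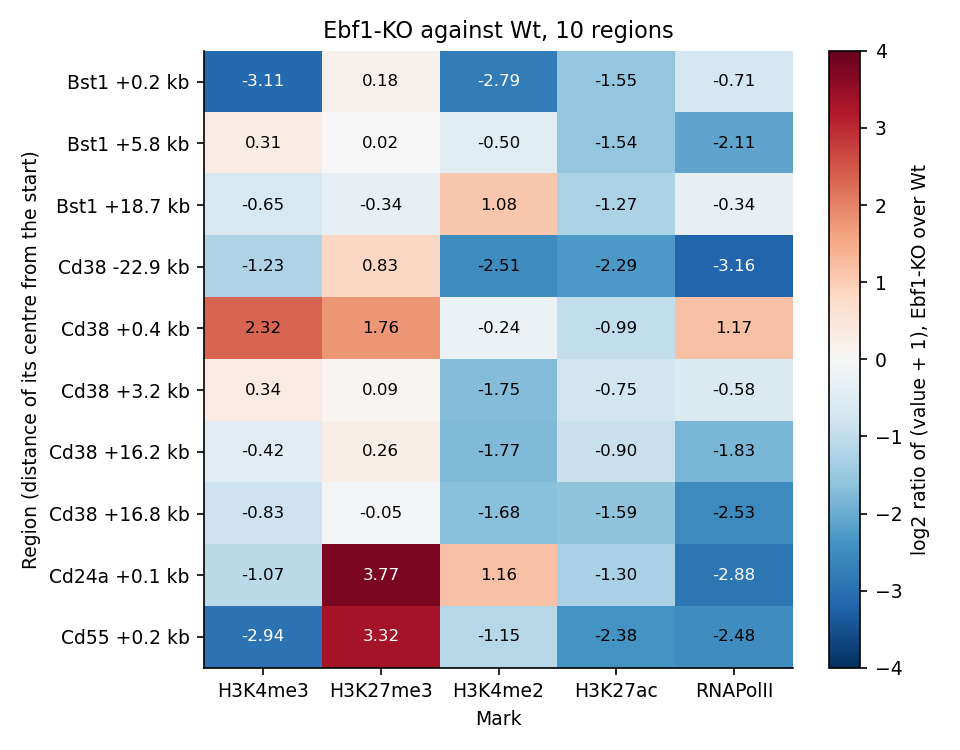
Log2 ratio of value plus 1, Ebf1-KO over Wt, for 10 member regions (lines, named by distance from the start) and 5 marks (columns), blue for lower and red for higher in Ebf1-KO. The Cd38 start at 0.4 kb is red for H3K4me3 (2.32), H3K27me3 (1.76) and PolII (1.17), and Cd24a and Cd55 are red for H3K27me3 (3.77 and 3.32).

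Ebf1 binding was known from the Abelson line, where 3 of the 15 regions overlapped an Ebf1-bound region (25.0% of all 4829). These were Bst1 at 5.8 kb and the Cd24a start, each with a Pax5 peak, and Cd38 at 3.2 kb, without one. Of the 1172 Ebf1-bound regions 54.3% had a Pax5 peak. Cd55 had no Ebf1-bound region. All 3 were among the 916 that the authors' tables class as open in Ebf1-KO.

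The time course asked how accessibility at these 3 regions moved once Ebf1ER was activated in Ebf1-KO cells. All 3 were higher at 72 h than at 0 h, by just under 2-fold on the scale of value plus 1. Of all 1172 regions 86.8% were higher by any amount. Bst1 held 54.1 (47.7–61.2), 70.6 (62.0–80.0), 101 (91.0–112) and 99.4 (89.2–110) tags at 0, 6, 24 and 72 h. Cd24a held 42.7 (37.0–49.0), 60.5 (52.6–69.3), 71.0 (62.6–80.2) and 84.1 (74.8–94.3) tags at these times. At Cd38 the signal was low, with 4.44 (2.75–6.79), 6.91 (4.43–10.3), 7.65 (5.08–11.1) and 9.22 (6.31–13.0) tags, from 21 to 32 tags counted.

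By 72 h the ratio to 0 h was 1.84 (1.56–2.17) at Bst1, 1.97 (1.64–2.37) at Cd24a and 2.08 (1.16–3.79) at Cd38. On log2 of value plus 1 none of the 3 reached 2-fold, against 18.2% of all 1172 regions. The median of all regions was 0.26, 0.47 and 0.50 on the log2 scale at 6, 24 and 72 h, and relative to it the 3 regions stood at 0.37 (Bst1), 0.46 (Cd24a) and 0.41 (Cd38) at 72 h. The intervals of Bst1 at 24 and 72 h overlapped. With TMM all 3 stayed higher at 72 h than at 0 h, beside 45.6% of all 1172 regions. The library totals at 6 and 72 h were 34710011 and 34710016 tags, close to equal.

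**Figure D4:**
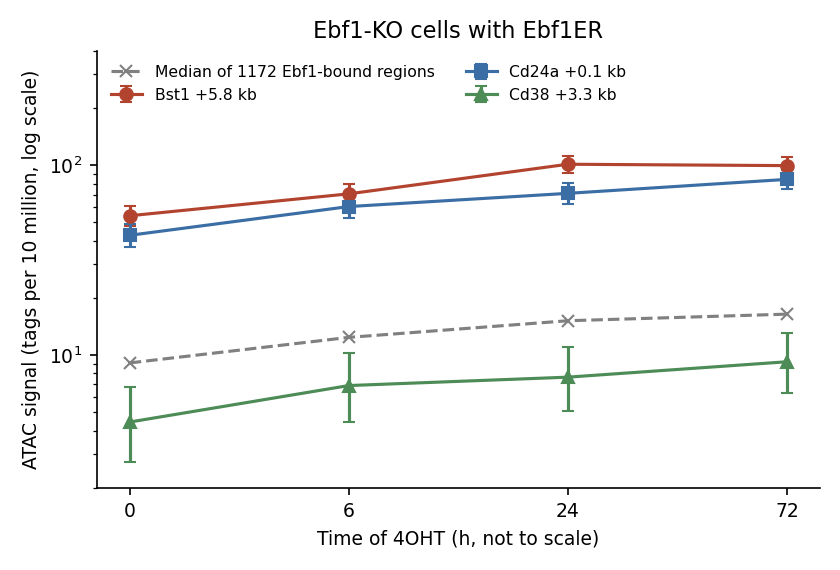
ATAC signal of the 3 Ebf1-bound member regions in Ebf1-KO cells with Ebf1ER at 0, 6, 24 and 72 h of 4OHT, in tags per 10000000 tags on a log axis with 95% Poisson intervals, and the median of 1172 Ebf1-bound regions as a dashed line. The 3 lines climb alongside the median, with Bst1 level between 24 and 72 h.

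The chromatin remodeller BRG1 and the acetyltransferase EP300 were measured at the same 3 regions in Ebf1-KO and Wt cells. Cd24a had the largest difference for both. BRG1 there was 9.02 (6.53–12.1) tags in Ebf1-KO and 27.4 (23.2–32.3) in Wt, 3.04-fold lower (2.15–4.38), and it was the 1 of 3 regions at least 2-fold lower (32.4% of 1172). At Bst1 BRG1 was 26.2 (21.8–31.2) tags in Ebf1-KO and 34.1 (29.3–39.4) in Wt, a log2 ratio of -0.37 that was -0.08 relative to the median. At Cd38 it was 8.81 tags in Ebf1-KO and 10.2 in Wt, with an interval that included equal signal, and the direction turned with TMM (0.08).

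EP300 was at least 2-fold lower in Ebf1-KO at 2 of the 3 regions (36.9% of 1172), and at 1 of 3 with TMM (26.5%). Cd24a held 9.87 (7.59–12.6) tags in Ebf1-KO and 38.7 (32.9–45.2) in Wt, 3.92-fold lower (2.91–5.34). Bst1 held 50.6 (45.2–56.4) tags in Ebf1-KO and 90.05 (81.1–99.7) in Wt, 1.78-fold lower (1.53–2.07), and Cd38 held 4.54 (3.04–6.53) in Ebf1-KO and 11.9 (8.82–15.8) in Wt, 2.63-fold lower (1.63–4.31). The median of all 1172 regions was itself -0.56 on the log2 scale. Relative to that median Cd24a stood at -1.31, Bst1 at -0.26 and Cd38 at -0.66. The antibody field of the Wt EP300 sample names PolII with a question mark, so the identity of that library rests on its title.

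Fli1, an ETS factor of progenitors, and Ikzf1 (Ikaros) were mapped in Wt cells as peak lists. Fli1 had 11 peaks nearest a member gene, 5 at Cd38 and 3 each at Bst1 and Cd55, and none at Cd24a. Of the 15 regions 7 overlapped a Fli1 peak (36.8% of all 4829), and 2 overlapped an Ikzf1 peak (11.8%). The scores are the authors' own and rank peaks only within a list.

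The strongest member peak of Fli1 lay in Bst1 intron 4 (chr5:43824563-43824915), inside the Ebf1-bound region that also had a Pax5 peak. The Fli1 score of 45.7 ranked 978 of 27261. The next Fli1 peak lay 12.5 kb upstream of Cd55 (chr1:130475022-130475374), with a score of 36.2 and rank 2431. It sat in a region accessible in the Abelson line that the accessibility table of the progenitors did not hold. At Cd38 a Fli1 peak at chr5:43885338-43885690 (score 23.8) spanned the regions at 16.2 and 16.8 kb. Peaks that overlapped the regions over the starts, without covering the starts themselves, scored 12.9 at Cd55 and 9.05 at Bst1, below the list's median of 16.7.

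Both Ikzf1 peaks lay at Cd38 and both overlapped a Fli1 peak. One was in the region at 16.8 kb (chr5:43885498-43885682), with a score of 7.05, equal to the median of 5741 peaks. The other was in the region 22.9 kb upstream (chr5:43845882-43846066), with a score of 6.66. These are 2 of the 4 Cd38 regions that were at least 2-fold lower in E2A-KO with library totals. Relative to the median of all regions the one at 16.8 kb stood at -2.26. The one 22.9 kb upstream stood at -0.86, short of 2-fold.

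In the Abelson line the 4 genes had 26 accessible regions, 16 at Cd38, 6 at Bst1, 3 at Cd55 and 1 at Cd24a. PLAC-seq interactions, pairs of 5 kb bins with more H3K4me3-selected contacts than modelled at a q-value of at most 0.05, were taken where either bin overlapped such a region. Of 69898 interactions 40 did so, with 7 at Bst1, 15 at Cd38, 19 at Cd24a, 1 of them shared by Bst1 and Cd38, and 0 at Cd55. The members' interactions had a median of 17.5 contacts and a median distance of 175 kb, beside 16 contacts and 130 kb over the whole list. Neighbouring bins share anchors, so the interactions are not independent of each other.

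Bst1 and Cd38 lie side by side, with starts 49.9 kb apart. The bin with the downstream edge of the Ebf1-bound Bst1 region (chr5:43825001-43830000) contacted the Cd38 bin chr5:43885001-43890000 with 27 contacts (q = 0.00248). That Cd38 bin holds the region at 16.8 kb whole and 417 of the 758 bases of the region at 16.2 kb, so its contacts cannot be assigned to one of them. The bin that covers most of that Bst1 region (chr5:43820001-43825000) contacted the promoter of the neighbouring gene Fbxl5, which encodes a ubiquitin ligase subunit that senses iron. This pair of bins lay 40 kb apart and had 36 contacts (q = 8.23e-08). Bins of Cd38 contacted the same Fbxl5 promoter bin, among them chr5:43885001-43890000, with 30 contacts over 105 kb (q = 5.47e-07).

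In all, 5 of the interactions reached the Fbxl5 promoter bin and 4 the Tapt1 promoter bin, with Tapt1 up to 400 kb away. Another 6 reached 2 bins near Fgfbp1 that held no promoter, 4 of them chr5:43945001-43950000 with 17 to 25 contacts and 2 of them chr5:43990001-43995000 with 14 and 18. The bin of the Cd38 start contacted Tapt1 with 20 contacts over 360 kb (q = 1.08e-06), and the bin chr5:43885001-43890000 with 20 contacts over 340 kb (q = 1.78e-08). Within Cd38, the bin 22.9 kb upstream contacted the bin with the upstream part of the region at 16.2 kb, which also holds another region of the Abelson line, with 31 contacts over 35 kb (q = 3.38e-05). The bin of the Bst1 start had 1 interaction, with 8 contacts over 370 kb (q = 0.0465).

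All 19 interactions of Cd24a ran toward higher coordinates of chromosome 10, over 95 to 585 kb. The bin chr10:43575001-43580000 held 12 of them and the next bin 7. The most contacts, 37 over 130 kb, were with a bin near 1700027J07Rik (q = 2.41e-12). The lowest q-value (2.78e-17) belonged to a bin near Rtn4ip1 at 340 kb, with 29 contacts, and a bin with the Qrsl1 promoter at 325 kb had 25 (q = 5.26e-14). A promoter lay in the partner bin of 2 of the 19, those of Qrsl1 and 1700027J07Rik. What these bins do in the progenitors was not measured.

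**Figure D5:**
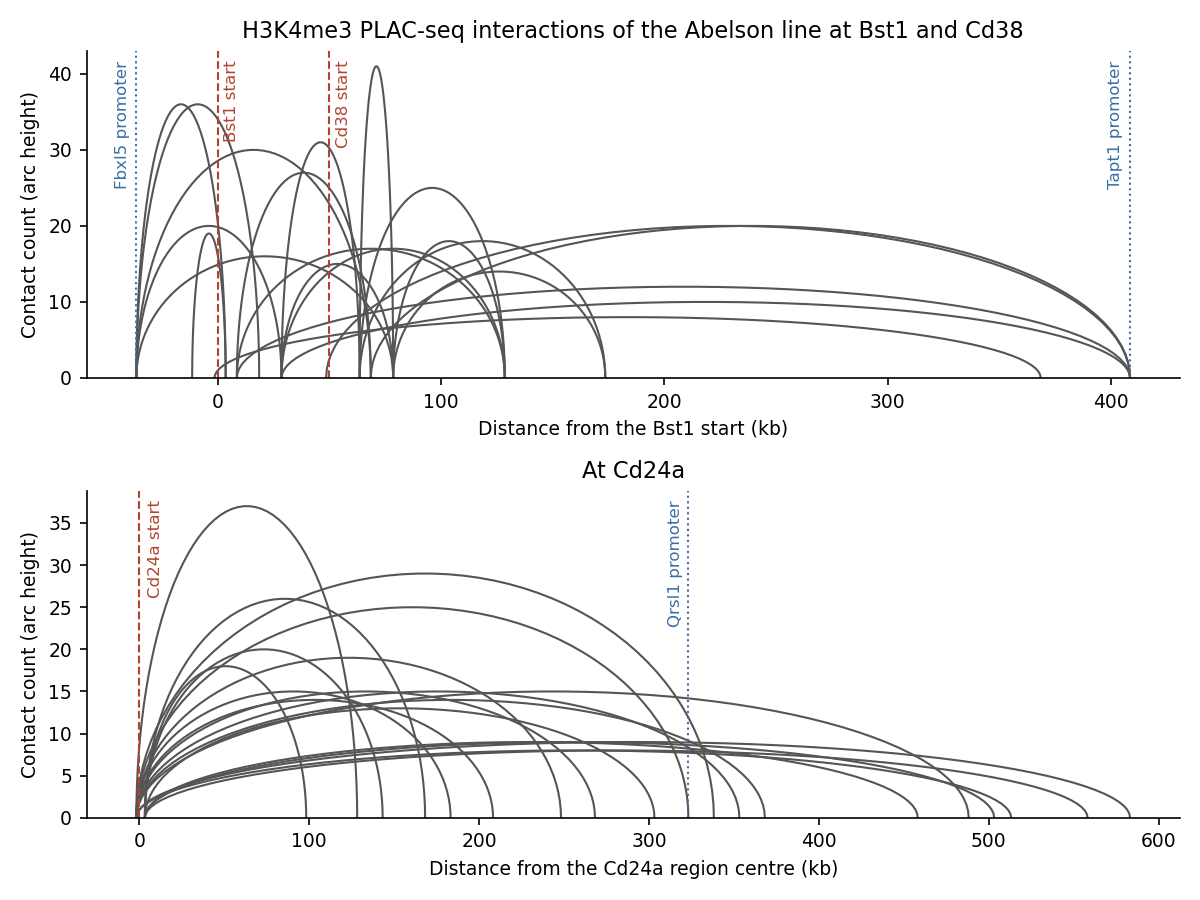
PLAC-seq interactions of the Abelson line at Bst1 and Cd38 (top, distance from the Bst1 start in kb) and at Cd24a (bottom, distance from the centre of its region in kb), each arc joining the centres of a pair of bins with the contact count as its height. At the top 5 arcs reach the Fbxl5 promoter bin, 4 the Tapt1 promoter bin and 6 a pair of bins near Fgfbp1 without a promoter, and all 19 arcs at the bottom run to the right.

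Other surface genes were read from lists drawn up without the 4 members, each gene by its strongest region. Listed genes had regions only where they passed the restriction to genes higher in Wt. A lower knockout signal at them is therefore not independent evidence either, and the lists were chosen with earlier results known. Of 37 surface antigens of B progenitors and lymphocytes 13 had regions in the E2A table, and 10 were at least 2-fold lower in E2A-KO (40.3% of 1787 genes), with a median log2 ratio of -2.10 beside -0.83 for all genes. Enpep, which encodes the BP-1 antigen, held 2.45 tags in E2A-KO and 52.1 in Wt, and Cd79a, a chain of the B-cell receptor complex, held 8.04 in E2A-KO and 74.6 in Wt. At the other end Slamf1, a receptor of the SLAM family, held 9.79 tags in E2A-KO and 7.15 in Wt, and Cd52, a short GPI-anchored peptide, 72.4 in E2A-KO and 92.1 in Wt.

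In Ebf1-KO, H3K4me3 was at least 2-fold lower at 7 of 13 of these genes (19.3% of 1623) and higher at 1, Slamf1 (17.0%). H3K27me3 was at least 2-fold higher at 5 of 13 (22.4%), and PolII at least 2-fold lower at 8 of 13 (37.2%). Slamf1 held 14.6 H3K4me3 tags in Ebf1-KO and 2.74 in Wt, like the Cd38 start in direction, and Cr2, a complement receptor, held 18.25 H3K27me3 tags in Ebf1-KO and 2.22 in Wt. At 72 h of 4OHT 3 of the 10 listed genes with Ebf1-bound regions were at least 2-fold higher than at 0 h (16.0% of 799), and their median log2 ratio was 0.64 beside 0.49. Cd79a held 31.4 tags at 72 h and 5.07 at 0 h.

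Of 14 other GPI-anchored or nucleotide-consuming surface proteins 2 had regions, Entpd1 and Cd52. Neither was at least 2-fold lower in E2A-KO, with log2 ratios of -0.75 and -0.34. Of 11 other complement regulators and receptors 1 had a region, Cr2, with 17.95 tags in E2A-KO and 89.5 in Wt (log2 ratio -2.26). With 2 and 1 measured genes these lists describe single genes.

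The regions most like Bst1 intron 4 were sought among the 1172 Ebf1-bound regions, by Pearson correlation of log2 of value plus 1 over the 20 ATAC, mark and factor columns. They lay near Ston1 (chr17:88620637-88621716, r = 0.95), Blk (chr14:63377132-63377826, r = 0.94) and Jakmip1 (chr5:37044591-37045299, r = 0.94). Cd38 at 3.3 kb had r = 0.87 and the Cd24a start r = 0.36. These are descriptions over columns that share libraries and scaling.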

How the data were processed

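Signal in each region table is a tag number that the authors obtained with HOMER and scaled to 10000000 tags a library, per the file headers, with no division by length. Value times the library total in the header gave whole tags within 0.1, or multiples of 0.5 tag for H3K27me3 and H3K27ac, and intervals used these rounded. Per the submitters' processing notes, the tools included Trim Galore 0.6.4, Bowtie2 2.3.5, HiC-Pro 2.11.1, SAMtools 1.9, HOMER 4.10 and deepTools 3.3.1, and the build was mm10. Peak scores of the Fli1 and Ikzf1 lists are the authors' deposited values, as are contact counts and q-values of the PLAC-seq list. The name of the Wt ATAC column gives 6 libraries and a fragment size of 180, while 3 Wt samples were labelled. There were 2 columns, Ebf1-KO and Pax5-KO ATAC, that matched no labelled sample and were not used.

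Positions listed more than once were kept once. Log2 ratios were taken of value plus 1 and counted past 2-fold. With 1 column a group no count test was possible. The recovered tags of each whole table gave TMM factors (edgeR 4.0.16). Overlaps needed 1 bp. Alternatives were TMM, centring on the median, pseudocounts of 0.1 and 5, thresholds of 1.5-fold and 3-fold, a minimum of 5 tags, regions within 50 kb, and rows as deposited, the last added after seeing the data. All member regions could be named. From other lists the rule named up to 4 genes a comparison, those with the 2 highest and the 2 lowest ratios, and Cd5, Klrb1c and Lyz2 are named as the 1 measured gene of their list. The members and lists were chosen with earlier results of these data known. Labels do not say whether replicates came from separate animals. Python 3.11.15, pandas 2.3.3, SciPy 1.17.1 and R 4.3.3 were used.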

Additional observations from a re-analysis of the deposited data

How the results depend on the processing

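No paired analysis was possible because each group was 1 column, and for the same reason no replicate could be left out. The counts of member regions past 2-fold moved by over 1.5 times in these settings. In E2A-KO ATAC 8 became 3 with TMM, 3 relative to the median of all regions and 4 at a 3-fold threshold. For H3K27ac 7 became 2 with TMM, 2 relative to the median and 3 at 3-fold. For EP300 2 became 1 with TMM, relative to the median, with a pseudocount of 5 and at 3-fold. At 72 h of 4OHT 0 became 1 with a pseudocount of 0.1 and 3 at 1.5-fold. At 3-fold H3K4me3 gave 2 and BRG1 gave 0. Fli1 and Ikzf1 peaks numbered 13, and 4 scored at or above the median of their list. PLAC-seq interactions numbered 40, and 26 with member regions within 10 kb of the start. The other 69 recomputed counts stayed within 1.5 times. No ratio past 2-fold changed sign under TMM, centring or either pseudocount. Depth limits the Cd38 regions under 2 tags and H3K27me3 in Wt, where intervals of the fold are wide.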
